A study of Mus musculus with 4 samples.

Results

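The CD200 receptor family of the mouse consists of *Cd200r1*, *Cd200r2*, *Cd200r3* and *Cd200r4*, and *Cd200* encodes the ligand. Expression of these 5 genes was examined in *in vitro* MDSCs, immature myeloid cells that arise when bone marrow cells are cultured with GM-CSF. Members were selected by gene symbol, after the difference between G-CSF and Control was known, so that their values are described here without a test. All 5 symbols were found among the 24346 genes in the deposited tables, and all 5 passed the filter on low values, as did 12024 genes in all. Both groups were bone marrow cells of female C57BL/6J mice, 6 to 8 weeks old, kept for 4 days in 40 ng/ml GM-CSF. The G-CSF group (2 libraries) also received 5 ng/ml G-CSF, and the Control group (2 libraries) did not. The question was how G-CSF added during differentiation changed gene expression. RNA came from the whole culture without a sort, and each group rests on 2 cultures that the study calls biological replicates, so the spread within a group is known only roughly.

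CD200 is a membrane glycoprotein found on B cells, activated T cells, endothelium and neurons, among others. It binds CD200R1 on myeloid cells and mast cells and dampens their activation. CD200R1 has a long cytoplasmic tail with tyrosines, and it signals by recruiting the adaptors DOK2 and DOK1 and the Ras regulator RasGAP, without the classical inhibitory motif of many other receptors. The related receptors have short tails and associate instead with DAP12, an adaptor that passes activating signals through the kinase SYK. Receptors of this kind, in which close relatives carry opposite signals, are called paired receptors. CD200R3 is known from basophils and mast cells.

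The values were FPKM, fragments scaled to transcript length and to mapped reads, which allows levels to be compared between genes. The 4 libraries held an estimated 12.47 to 15.59 M mapped reads and 14674 to 14890 genes above 0. Neutrophil and MDSC genes were abundant, and the mean of *Itgam* (CD11b) was 518 ± 3.11 FPKM without and 405 ± 14.5 FPKM with G-CSF (SD, n = 2). A label of the samples mentions liver tissue, whereas the study's methods describe cultured cells, and 5 of 8 hepatocyte markers, *Apoa1*, *Fgb* and *Tat* among them, stood at 0 in every library. In bulk RNA of this kind, fewer cells of a type and less RNA per cell cannot be told apart, which holds for all levels below. By flow cytometry of such cultures, the paper reported unchanged percentages of MDSCs, dendritic cells and macrophages with G-CSF. The share of monocytic MDSCs rose there and that of polymorphonuclear MDSCs fell.

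The 4 receptor genes lie side by side on the plus strand of chromosome 16 (GRCm38) over 216 kb, in the order *Cd200r1* (ENSMUSG00000022667.18, chr16:44765736-44794978), *Cd200r4* (ENSMUSG00000062082.16, chr16:44811733-44839150), *Cd200r2* (ENSMUSG00000090176.1, chr16:44867097-44915840) and *Cd200r3* (ENSMUSG00000036172.17, chr16:44943678-44981380). Among the protein-coding genes matched to the tables, 0 others lie between them. *Cd200* (ENSMUSG00000022661.14, chr16:45382135-45409053) is on the minus strand, 401 kb beyond *Cd200r3*. The genes resemble each other closely. Over aligned coding bases, *Cd200r2* and *Cd200r4* were 91.3% identical, *Cd200r1* and *Cd200r4* 88.4%, and *Cd200r1* and *Cd200r2* 86.6%. *Cd200r3* was the most distant, at 71.2% to *Cd200r1*, 75.3% to *Cd200r4* and 76.2% to *Cd200r2*. The encoded tails differ more. After the most hydrophobic stretch of the translated protein, *Cd200r1* encodes 65 further residues with 3 tyrosines, 1 of them in an NPXY motif, the kind of site that DOK proteins bind. *Cd200r2* and *Cd200r4* each encode 13 residues after that stretch, with 0 tyrosines, and the *Cd200r3* transcript examined encodes 32, with 1 tyrosine outside such a motif.

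The likeness bears on the values, because a 75-base read that lies inside a stretch shared by 2 genes cannot be assigned to either from its sequence. The longest exact run between 2 of the receptors is shown for this reason. It is 110 coding bases long, in exon 4 of 6 of *Cd200r2* (chr16:44909521-44909630) and exon 5 of 7 of *Cd200r4* (chr16:44833331-44833440), and the sequence below is that of both genes on the plus strand. The second line is the matching part of exon 4 of 7 of *Cd200r1* (chr16:44790020-44790129), with its 3 differences in capitals.
Cd200r2 and Cd200r4: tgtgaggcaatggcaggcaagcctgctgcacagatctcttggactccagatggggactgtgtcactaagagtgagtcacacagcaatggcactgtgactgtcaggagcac
Cd200r1: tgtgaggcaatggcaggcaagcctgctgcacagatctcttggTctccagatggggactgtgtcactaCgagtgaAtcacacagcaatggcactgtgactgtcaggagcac
Of the 75-base windows of each transcript, 36 of 1676 (2.15%) in *Cd200r2* also occurred in *Cd200r4*, and 14 of 1818 (0.77%) in *Cd200r1* also occurred in *Cd200r4*. *Cd200r4* shared 50 of 1722 windows (2.90%) with these 2 genes together. *Cd200r3* and *Cd200* shared 0 windows with another gene.

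*Cd200r1*, the inhibitory receptor, was the most abundant member. It stood at 62.3 and 65.9 FPKM in the Control libraries and at 49.1 and 49.2 FPKM in the G-CSF libraries. Both G-CSF values lay below both Control values, and the 2 G-CSF libraries were nearly equal. The means were 64.1 ± 2.51 and 49.2 ± 0.0969 FPKM (SD, n = 2), a level 23.3% lower with G-CSF, and the log2 fold change was -0.38 (SE 0.0487). About 1030 to 1570 reads per library stood behind these values, so counting error was small. In mean FPKM, *Cd200r1* exceeded 86.3% of all genes tested.

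*Cd200r4*, a short-tailed receptor, came close behind. It measured 59.9 and 54.7 FPKM in Control and 38.9 and 40.6 FPKM with G-CSF. The groups did not overlap here either. The means were 57.3 ± 3.72 and 39.7 ± 1.17 FPKM (SD, n = 2), a level 30.7% lower with G-CSF and a log2 fold change of -0.53 (SE 0.0601), from 871 to 1443 estimated reads.

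*Cd200r2*, the other receptor with a tail of this length, differed most between the groups. It measured 3.68 and 2.88 FPKM in the Control libraries against 0.625 and 0.373 FPKM in the G-CSF libraries. Each Control library exceeded each G-CSF library several-fold, although the level was low throughout, and in mean FPKM only 16.5% of tested genes stood below it. The means were 3.28 ± 0.564 and 0.499 ± 0.178 FPKM (SD, n = 2), which is 84.8% lower with G-CSF, and the log2 fold change was -2.52 (SE 0.253). With 1 FPKM in place of 0.1 FPKM added before the logarithm, the log2 fold change was -1.51. These values correspond to about 76 and 63 reads in Control and 12 and 9 reads with G-CSF. The 36 windows in common with *Cd200r4* would be expected to hold 16.2 and 21.2 *Cd200r4* reads in the G-CSF libraries and 26.9 and 25.9 in the Control libraries. An even split of such reads would give *Cd200r2* 8.12 and 10.6 reads with G-CSF, close to the 12 and 9 reads estimated there, and 13.5 and 13 reads in Control, well below the 76 and 63 reads. How the authors' programs divided reads between these genes was not tested, so the level left with G-CSF, and with it the size of the fold change, is uncertain.

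*Cd200r3*, the receptor of basophils and mast cells, stood at 2.62 and 2.68 FPKM in Control and at 2.34 and 1.52 FPKM with G-CSF. The G-CSF libraries lay below both Control libraries, but differed from each other by more than the first of them differed from Control. Their means, 2.65 ± 0.0417 and 1.93 ± 0.581 FPKM (SD, n = 2), were 27.0% apart, and the log2 fold change was -0.46 (SE 0.211). G-CSF replicate 2 weighed heavily in it, since the log2 fold change ranged from -0.76 to -0.17 when a library was left out. The number of reads behind *Cd200r3* depends on the isoform, as its 9 basic transcripts run from 731 to 3876 bases. G-CSF replicate 2, for example, would hold 12 reads on the shortest and 87 on the longest.

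The ligand gene *Cd200* showed 2.09 and 2.04 FPKM in Control and 2.18 and 1.94 FPKM with G-CSF. Here both Control values lay between the G-CSF values. The means were 2.07 ± 0.0354 and 2.06 ± 0.165 FPKM (SD, n = 2), with a log2 fold change of -0.0063 (SE 0.143). Its 58 to 65 reads per library are about as many as *Cd200r2* had in Control, so that a difference of the size seen in *Cd200r2* would have been visible at this depth.

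**Figure D1:**
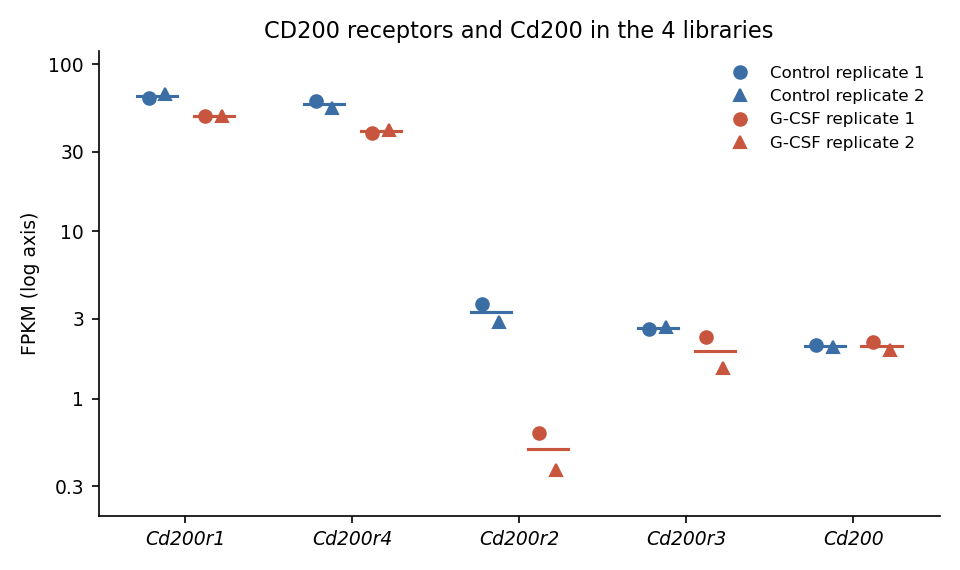
FPKM (log axis) of the 4 CD200 receptor genes and *Cd200* in each library, with Control in blue, G-CSF in red, circles for replicate 1, triangles for replicate 2 and a horizontal line at each group mean. *Cd200r1* and *Cd200r4* stand at 38.9 FPKM or higher in every library, *Cd200r2* is the 1 member whose G-CSF values drop under 1 FPKM, and the groups overlap in *Cd200* alone.

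In the fit across all genes, a gene was called where the adjusted p was under 0.05 and the change exceeded 2-fold (limma, Benjamini-Hochberg). By this rule 1 of the 5 members, *Cd200r2*, was called lower, against 0.907% of all genes tested, and 0 members were called higher, against 0.516%. With the adjusted p alone, 3 members (*Cd200r1*, *Cd200r2* and *Cd200r4*) were lower and 0 higher, against 11.4% and 12.5% of all genes. In 4 of 5 members both G-CSF values lay below both Control values, as they did in 32.5% of all genes. Since the members were taken from this same contrast, these counts only describe them. From the lowest log2 fold change upwards among the 12024 genes, *Cd200r2* ranked 3, *Cd200r4* 735, *Cd200r3* 923 and *Cd200r1* 1290.

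**Figure D2:**
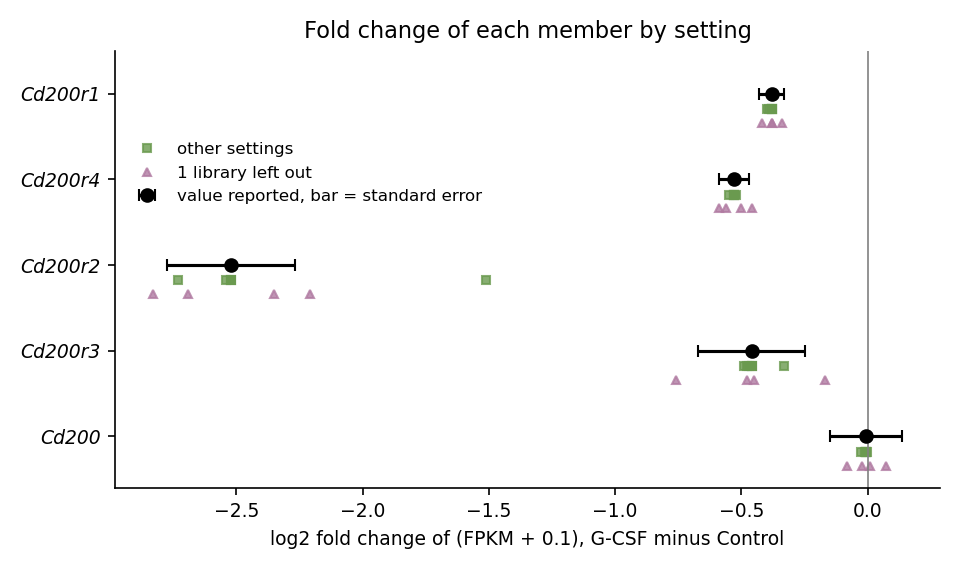
Log2 fold change of FPKM + 0.1 (G-CSF minus Control) for each member, with its standard error as a bar (black), under other settings (green squares) and with 1 library left out at a time (purple triangles). *Cd200r2* ranges from -2.83 to -1.51, *Cd200r1* and *Cd200r4* stay within 0.1 of their black points, and the triangles of *Cd200* fall on both sides of 0.

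Within each library, the receptors kept part of their order. *Cd200r1* came first and *Cd200r4* second in all 4 libraries. The ratio of *Cd200r1* to *Cd200r4* was 1.04 and 1.20 in the Control libraries and 1.26 and 1.21 in the others, so that these neighbours were nearly level in Control replicate 1. The lower members changed places. Both Control libraries had *Cd200r2* above *Cd200r3* and *Cd200* last, whereas both G-CSF libraries had *Cd200r2* last. In Control the means of *Cd200r2* and *Cd200r3* differed by little more than the SD of *Cd200r2*, and with G-CSF the values of *Cd200r3* and *Cd200* overlapped, so that neither pair can be put in order firmly.

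The 4 receptors together came to 129 and 126 FPKM in Control against 91.0 and 91.7 FPKM with G-CSF. *Cd200r1* made up 48.5% and 52.2% of this sum in Control against 54.0% and 53.7% with G-CSF, and *Cd200r4* made up 46.6% and 43.4%, then 42.8% and 44.2%. *Cd200r1* thus held the larger share in every library, nearly level with *Cd200r4* in Control replicate 1 and further ahead in the other 3. The share of *Cd200r2* was 2.86% and 2.28% in Control against 0.687% and 0.407% with G-CSF, and *Cd200r4* exceeded *Cd200r2* 16.3 and 19 times in Control but 62.3 and 109 times with G-CSF.

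The sequence before the start site was compared, where available, because the receptor genes lie in 1 cluster and differ in level and in fold change. RefSeq promoters (GRCm38.p6) were at hand for *Cd200r2*, *Cd200r3*, *Cd200r4* and *Cd200*, but not for *Cd200r1*. Those of the 3 receptors are printed as the 250 bases up to the start, 5′ to 3′ on the plus strand, at chr16:44820478-44820727 for *Cd200r4*, chr16:44866847-44867096 for *Cd200r2* and chr16:44943428-44943677 for *Cd200r3*. The RefSeq start of *Cd200r4* lies inside the longer gene of the GENCODE annotation. Capitals mark matches to the C/EBP letters TTGCNNAA or the GATA letters AGATAA on either strand.
Cd200r4: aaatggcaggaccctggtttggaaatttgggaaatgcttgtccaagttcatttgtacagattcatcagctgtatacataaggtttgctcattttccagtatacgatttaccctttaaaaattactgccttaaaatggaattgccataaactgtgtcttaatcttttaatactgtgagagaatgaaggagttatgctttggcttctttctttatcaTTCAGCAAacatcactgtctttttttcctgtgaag
Cd200r2: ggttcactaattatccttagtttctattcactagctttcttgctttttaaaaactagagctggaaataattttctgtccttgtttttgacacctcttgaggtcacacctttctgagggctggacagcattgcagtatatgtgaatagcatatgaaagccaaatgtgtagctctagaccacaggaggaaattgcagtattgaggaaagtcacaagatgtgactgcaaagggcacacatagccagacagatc
Cd200r3: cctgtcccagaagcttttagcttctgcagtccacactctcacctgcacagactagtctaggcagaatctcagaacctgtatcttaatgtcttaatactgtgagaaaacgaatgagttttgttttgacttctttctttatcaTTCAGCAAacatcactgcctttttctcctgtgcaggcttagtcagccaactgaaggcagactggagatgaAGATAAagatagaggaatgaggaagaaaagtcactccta
The windows of *Cd200r4* and *Cd200r3* were 77.1% identical over 175 aligned bases, with an exact run of 32 bases, and the C/EBP match lies within their similar part. *Cd200r2* was 56.8% identical to *Cd200r4* and 56.2% to *Cd200r3*. The window of *Cd200*, which is no receptor, was 63.9% identical to *Cd200r2*, 57.5% to *Cd200r4* and 57.2% to *Cd200r3*. All pairs other than *Cd200r4* with *Cd200r3* aligned over 205 to 224 bases, and their longest exact runs were 7 or 8 bases. The identity of unrelated windows was not computed. The C/EBP letters occurred in 9.56% of 32851 promoter windows of this length and the GATA letters in 9.99%, and *Cd200* had a GATA match too. The STAT letters TTCNNNGAA (7.02% of windows) and the PU.1 letters GAGGAAGT (2.44%) matched 0 of the 4 windows. A match is a likeness of letters and was not tested as a binding site.

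The genes around the cluster were examined to see whether the difference extended along the chromosome. Within 1 Mb of a member lie 29 protein-coding genes that could be matched to the tables. Genes whose names found no match were not counted. Of the 29, 15 were tested, and 0 were called in either direction with limma. An unadjusted p under 0.05 was found in 4 of the 15, against 38.7% of all genes tested (4651 of 12024). The median log2 fold change of the 15 was -0.036, against 0.00059 for all genes tested. *Naa50*, which encodes an N-terminal acetyltransferase, was the 1 neighbour past an adjusted p of 0.05, and it rose (log2 fold change 0.24, SE 0.0563, limma adjusted p = 0.0265). It was no longer past the threshold without the filter on low values. Within 200 kb of a member, 5 of these matched genes were tested. On the *Cd200r1* side, the GTPase gene *Gtpbp8* had a log2 fold change of -0.22 (SE 0.0977, limma adjusted p = 0.151). Between *Cd200r3* and *Cd200*, the values were -0.036 for *Ccdc80*, -0.21 for the nucleotide sugar transporter gene *Slc35a5*, -0.10 for the autophagy gene *Atg3* and -0.062 for *Btla*, another inhibitory receptor, with adjusted p from 0.106 to 0.934.

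**Figure D3:**
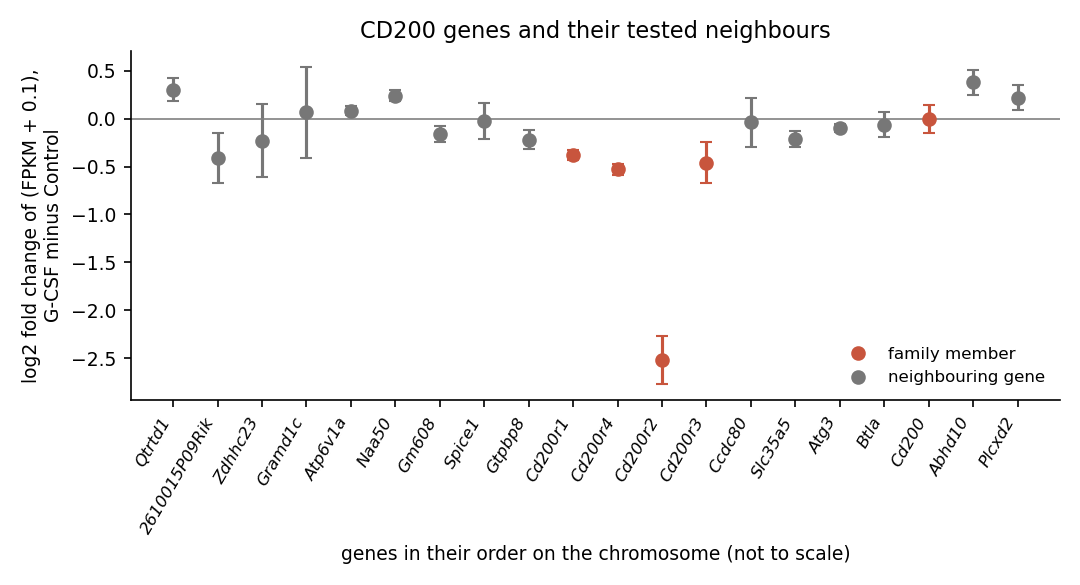
Log2 fold change of FPKM + 0.1 (G-CSF minus Control) with its standard error for the 5 members (red) and the 15 tested genes within 1 Mb (grey), in their order along the chromosome and not to scale. *Cd200r2* stands apart at -2.52, and the grey points lie between -0.41 and 0.38.

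The genes that act downstream of CD200R1 were then examined. Of 16 genes for its adaptors and the Ras pathway, all were tested and 0 were called with limma, while 9 had an unadjusted p under 0.05 (38.7% of all genes tested). At an adjusted p under 0.05, 5 were lower and 1 higher (11.4% and 12.5% of all genes tested), with a median log2 fold change of -0.11. The adaptor genes *Dok1*, *Dok2*, *Dok3* and *Nck1* were among those that fell, whereas the adaptor genes *Crk* (log2 fold change -0.15) and *Crkl* (0.19) did not pass (limma adjusted p = 0.148 and 0.101). *Dok2*, whose product binds the CD200R1 tail, measured 89.3 and 84.9 FPKM in Control and 67.5 and 66.9 FPKM with G-CSF (log2 fold change -0.37, SE 0.0464, limma adjusted p = 0.00531). *Dok3*, a related adaptor, fell from 88.4 ± 4.25 to 65.4 ± 2.59 FPKM (SD, n = 2, limma adjusted p = 0.0054). *Dok1* fell from 26.4 ± 1.60 to 21.8 ± 0.328 FPKM (SD, n = 2, limma adjusted p = 0.0262). The groups were apart in all 3 adaptors. *Rasa1*, which encodes RasGAP, stood at 9.82 ± 0.139 and 9.79 ± 0.146 FPKM (SD, n = 2, limma adjusted p = 0.97). *Nck1*, for an SH2 and SH3 adaptor, had a log2 fold change of -0.20 (limma adjusted p = 0.0344). With 1 library left out, 2 or 3 genes of this list were lower and 0 higher. After upper-quartile or median-ratio scaling, 0 genes of the list were higher.

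Of the 17 genes for DAP12 and its signalling, the arm used by the short-tailed receptors, 16 were tested and 0 were called with limma, while 7 had an unadjusted p under 0.05, against the same 38.7%. At an adjusted p under 0.05, 4 were lower and 0 higher, against 11.4% and 12.5%, with a median log2 fold change of -0.15. *Tyrobp*, which encodes DAP12, stood at 1768 and 1761 FPKM in Control and 1275 and 1406 FPKM with G-CSF (log2 fold change -0.40, SE 0.0639, limma adjusted p = 0.00962). *Fcer1g*, for the FcRγ chain that serves other activating receptors, fell from 1238 ± 6.67 to 901 ± 17.9 FPKM (SD, n = 2, log2 fold change -0.46, limma adjusted p = 0.004). The other members past the threshold were *Malt1* (-0.25, adjusted p = 0.0163) and *Lcp2* (-0.18, adjusted p = 0.0374), which encode a paracaspase and the adaptor SLP-76. In every library *Tyrobp* was far more abundant than the receptors. Without G-CSF replicate 2, the number of lower genes was 2.

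Other paired or DAP12-linked receptors provide a comparison with families of the same kind. Of 40 on the list, 31 were tested and 0 were called in either direction with limma, while 23 had an unadjusted p under 0.05, against 38.7% of all genes. At an adjusted p under 0.05, 12 were lower and 2 higher, against 11.4% and 12.5% of all genes, and the median was -0.22. The 4 with the smallest p were lower. The myeloid receptor genes *Lilr4b* (249 ± 2.24 to 187 ± 7.97 FPKM) and *Lilrb4a* (696 ± 8.57 to 541 ± 9.71 FPKM) had log2 fold changes of -0.42 and -0.36 (SD, n = 2, limma adjusted p = 0.00452 and 0.00529). *Cd300lb* and *Pilrb2*, both activating receptors, had log2 fold changes of -0.42 and -0.48 (limma adjusted p = 0.00531 and 0.00645). In these 4 receptors, picked by their p, the size was like that of *Cd200r1* and *Cd200r4*, which does not describe the list as a whole. Over the whole list 24 of the 31 log2 fold changes were below 0. They ran from -0.82 to 0.87, so that 0 of the 31 reached the -2.52 of *Cd200r2*. The difference between the families was not tested.

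**Figure D4:**
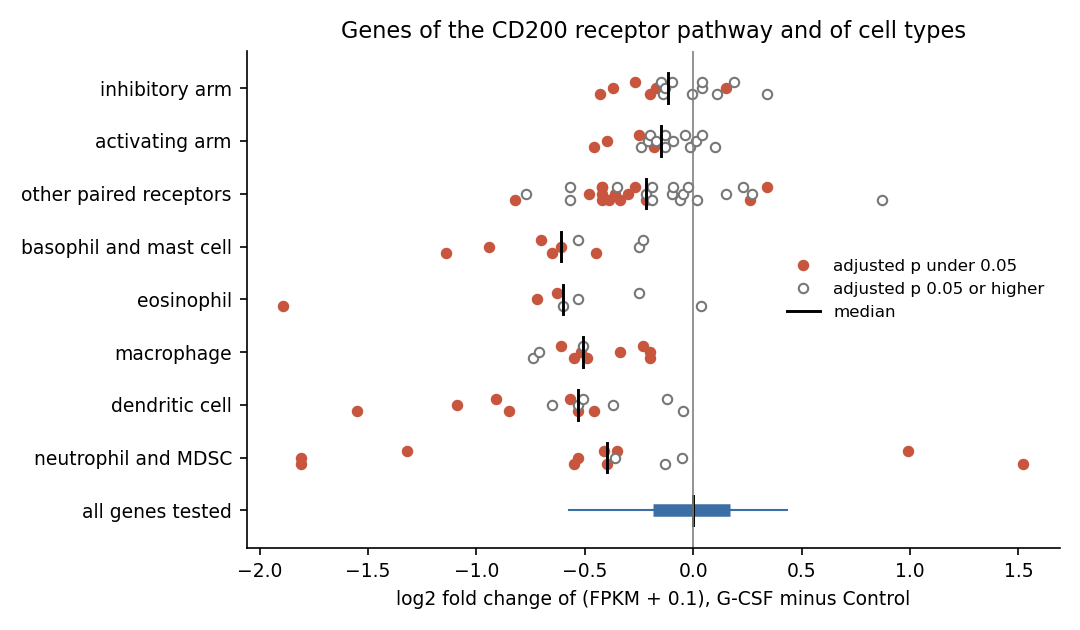
Log2 fold change of FPKM + 0.1 (G-CSF minus Control) of the tested genes in 3 signalling and receptor lists and 5 cell type marker lists, filled where the limma adjusted p was under 0.05, with the median of each list as a black line. The bottom row gives the median, the middle 50% (thick bar) and the 5th to 95th percentile (thin line) of all 12024 genes tested. Medians of the marker lists lie between -0.61 and -0.40, and those of the 3 upper lists between -0.22 and -0.11.

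Markers of cell types that carry CD200 receptors, or that the culture could hold, were examined beside the receptors. Of all genes tested, 11.4% were lower and 12.5% higher at an adjusted p under 0.05, and 0.907% were called lower and 0.516% higher. Basophil and mast cell markers, known for CD200R3, summed to 192 and 201 FPKM in Control and 120 and 136 FPKM with G-CSF. Of 17 such markers 9 were tested, 6 were lower at an adjusted p under 0.05 and 1, the histidine decarboxylase gene *Hdc* (log2 fold change -1.14, SE 0.189, limma adjusted p = 0.0107), was called. The basophil protease genes *Mcpt8* and *Prss34* fell, with log2 fold changes of -0.61 and -0.65 (limma adjusted p = 0.00452 and 0.00567), whereas the mast cell genes *Mcpt1*, *Mcpt2*, *Mcpt4*, *Tpsab1* and *Mrgprb2* stood at 0 in every library. *Cma1* and *Tpsb2* were above 0 in Control replicate 2 alone (0.081 and 0.24 FPKM). Other markers of this list were detected, among them *Cpa3* (17.0 ± 0.262 to 12.4 ± 0.573 FPKM), *Kit* (11.5 ± 0.541 to 7.02 ± 0.484 FPKM), *Ms4a2* (2.87 ± 0.0297 to 2.40 ± 0.0156 FPKM) and *Fcer1a* (2.12 ± 0.291 to 1.07 ± 0.260 FPKM) (SD, n = 2). Macrophage markers summed to 750 and 783 FPKM in Control and 620 and 645 FPKM with G-CSF, with 8 of 11 tested genes lower at an adjusted p under 0.05 (10 at an unadjusted p under 0.05), 0 called with limma and *Timd4* at 0 throughout. The 2 most abundant were *Cd68* (350 ± 4.54 to 305 ± 2.81 FPKM) and *Csf1r* (181 ± 5.70 to 155 ± 4.33 FPKM) (SD, n = 2). Dendritic cell markers summed to 2754 and 2354 FPKM against 1576 and 1273 FPKM, and 7 of 13 were lower. *Cd209a* and the MHC class II gene *H2-Ab1* were called, with log2 fold changes of -1.55 and -1.09. Eosinophil markers summed to 567 and 673 FPKM against 375 and 338 FPKM, with 3 of 7 tested genes lower and the ribonuclease gene *Ear6* called (-1.89). *Prg2* was the most abundant of them (257 ± 48.9 to 157 ± 28.9 FPKM, SD, n = 2). In neutrophil and MDSC markers, which summed to 78293 and 67803 FPKM against 53195 and 53175 FPKM, 8 of 13 were lower and 2 higher, with the late granule genes *Camp*, *Ltf* and *Retnlg* called lower and the early granule gene *Mpo* called higher. Most of that sum was *S100a8* (33123 ± 3522 to 25688 ± 175 FPKM) and *S100a9* (29634 ± 3288 to 20514 ± 10 FPKM) (SD, n = 2). An unadjusted p under 0.05 was found in 8 of 9 basophil and mast cell, 4 of 7 eosinophil and 10 of 11 macrophage markers tested. For dendritic cell markers this was 8 of 13, and for neutrophil and MDSC markers 11 of 13, against 38.7% of all genes tested. Median log2 fold changes were -0.61 (basophil and mast cell), -0.60 (eosinophil), -0.51 (macrophage), -0.53 (dendritic cell) and -0.40 (neutrophil and MDSC). The log2 fold change of *Cd200r3* (-0.46, SE 0.211) differed from each of these 5 medians by less than its SE, which is too large to tell these cell types apart. *Cd200r4* (-0.53) and *Cd200r1* (-0.38) also lay within or near the range of the medians. The log2 fold change of *Cd200r2* was further from 0 than that of every tested marker of these 5 lists. With 1 FPKM added before the logarithm this order did not hold, since *Cd200r2* stood at -1.51 against -1.87 for *Ear6*, -1.81 for *Camp* and -1.79 for *Retnlg*. The part of the cell types in the receptors' values was not tested.

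The genes whose pattern over the 4 libraries was most like that of each member were found by the Euclidean distance between centred log2(FPKM + 0.1) values. For *Cd200r2* these were the collagen gene *Col9a2* (distance 0.66), the multimerin gene *Mmrn2* (0.75), the cathelicidin gene *Camp* (0.76), *Ear6* (0.76) and the histone gene *Hist1h2be* (0.77). On this scale their log2 fold changes lay between -1.95 and -1.78, closer to 0 than that of *Cd200r2*. For *Camp* and *Ear6* this was not so with 1 FPKM added. *Mmrn2* had 17, 15, 2 and 0 estimated reads, and the ratio of its means was lower than that of *Cd200r2* (0.0689 against 0.152), a ratio that rests on these few reads. *Col9a2*, for example, stood at 1.65 and 1.44 FPKM in Control and 0.348 and 0.302 FPKM with G-CSF. The other members had nearer companions. *Cd200r1* was nearest to the scaffold gene *Nedd9* (0.012) and the phosphatase genes *Dusp6* (0.019) and *Dusp22* (0.021), and *Cd200r4* to the potassium channel gene *Kcnk13* (0.014), to *Gm10684* (0.033) and to *Tarm1* (0.037), a myeloid receptor gene. *Cd200r3* was nearest to *BC064078*, *Rarres1* and *Tmtc2* (0.053 to 0.069), and *Cd200* to *Dynll2*, *Smpd1* and *Arhgap39* (0.011 to 0.016). With 4 libraries, many genes share such a pattern.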

How the data were processed

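RNA-seq of 4 libraries (2 Control, 2 G-CSF) was used as deposited. The authors deposited FPKM for each gene. The submitters' processing notes name TopHat2 2.0.13, Bowtie2 2.2.3, SAMtools 0.1.19, Cufflinks 2.2.1 and the mouse build mm10. The annotation and the handling of reads that match several genes are not given in the sources used here. FPKM hold no depth, so mapped reads were estimated from the steps of 1 read among low values, of which 74.1% of 1971 lay within 0.1 reads of a whole number (20% without steps). Positions and transcripts came from GENCODE M21 (GRCm38), in which 23915 of 24346 names had 1 gene, 649 of them through an older symbol. Promoters came from RefSeq.

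A gene was tested if its estimated reads reached 10 in 2 libraries and 15 over all libraries and its transcript exceeded 200 bases, small RNA genes excepted. The test ran on log2(FPKM + 0.1) with limma 3.58.1 (lmFit, eBayes with trend = TRUE, two-sided, no block) in R 4.3.3, with Benjamini-Hochberg adjustment over all of them. On this scale the change of low genes is understated. Calls needed an adjusted p under 0.05 together with a log2 fold change beyond 1 in either direction, as in the study. Counts by the adjusted p alone were added after the values were seen. The fit was tested on simulated data.

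The members and lists were chosen with earlier results of these data known, and the lists were written from general knowledge. Named were all members, up to 6 genes called in each signalling or receptor list, filled to 4 by the smallest p, the adaptors *Tyrobp*, *Fcer1g*, *Dok1*, *Dok2* and *Rasa1*, tested neighbours within 200 kb, the 5 genes most like *Cd200r2* and 3 for each other member, and in marker lists up to 4 called genes and up to 2 of the most abundant. *Naa50*, *Crk*, *Crkl*, *Cpa3*, *Kit*, *Ms4a2*, *Fcer1a*, *Cma1*, *Tpsb2*, *Lck*, *Cd3g*, *Malt1* and *Lcp2*, the genes listed at 0, and *Itgam* were named after their values were seen where the rule did not name them. Alternatives were other pseudocounts, filters and scalings, the replicate block and leaving out each library. The result for 1 gene of the lists is not reported here.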

Additional observations from a re-analysis of the deposited data

How the results depend on the processing

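With 2 libraries in a group, the SD and the fits rest on few samples, and a fit without a library assumes that the lone library of its group varies like the other group. Adding 1 FPKM instead of 0.1 FPKM before the logarithm brought the log2 fold change of *Cd200r2* to -1.51 and the genes called to 57 (25 higher, 32 lower) from 171, because a larger pseudocount shrinks the change of low genes by construction. *Cd200r2* was not tested with 10 reads required in every library, since G-CSF replicate 2 held 9. Leaving out 1 library at a time gave log2 fold changes of -0.42 to -0.34 for *Cd200r1*, -2.83 to -2.21 for *Cd200r2*, -0.76 to -0.17 for *Cd200r3*, -0.59 to -0.46 for *Cd200r4* and -0.084 to 0.072 for *Cd200*, and 0 to 1 called among the other paired receptors (*Treml1* higher without Control replicate 1, *Fcrl1* lower without G-CSF replicate 2). The labels do not say that a replicate number marks a shared culture day, and the deviations of same-numbered libraries correlated at 0.241 across genes. With the replicate block, 187 genes were called (67 higher, 120 lower), and at an adjusted p under 0.05 the inhibitory arm had 7 lower and 1 higher, the activating arm 6 lower, and the other paired receptors 17 lower and 3 higher. Without a filter these lists had 2, 3 and 7 lower, and with a library left out 2 to 3, 2 to 3 and 7 to 14. The neighbouring genes had 2 higher with the block, and 0 or 1 with a library left out. Depth limits *Cd200r2* with G-CSF, whose values rest on few reads, and *Cd200r3* only if its reads came from the shortest isoforms.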

Other observations

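Cells that carry the ligand CD200 were looked for by their markers. B cell markers summed to 5.67 and 4.91 FPKM in Control and 5.33 and 3.92 FPKM with G-CSF, and 3 of 8 were tested. *Cd79b* and *Cd79a*, for the chains that signal from the B cell receptor, were the most abundant, at 3.15 ± 0.127 and 1.30 ± 0.144 FPKM in Control and 3.41 ± 0.800 and 0.609 ± 0.0523 FPKM with G-CSF (SD, n = 2), and of these *Cd79a* was lower (log2 fold change -0.98, limma adjusted p = 0.018). T cell and NK cell markers summed to 10.8 and 9.48 FPKM against 5.71 and 5.38 FPKM, with *Cd28*, *Cd3d* and *Cd8a* called lower among 5 tested and *Ncr1* at 0 in every library. Of all genes tested, 0.907% were called lower. *Cd28* held the largest part of the sum (5.32 ± 0.8 to 2.26 ± 0.214 FPKM, SD, n = 2). *Lck* and *Cd3g*, also tested, had log2 fold changes of -0.011 and -0.11 (limma adjusted p = 0.974 and 0.814). Endothelial and stromal markers summed to 22.2 and 21.0 FPKM against 25.7 and 24.8 FPKM. In that list *Pecam1*, also found on myeloid cells, made up most of the sum and rose (0.31, limma adjusted p = 0.0142). The collagen gene *Col1a1* was called lower (-1.66). Hepatocyte markers summed to at most 2.29 FPKM in a library. Against these, *Cd200* itself stood at 2.07 ± 0.0354 and 2.06 ± 0.165 FPKM (SD, n = 2).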
